A study of Mus musculus with 294 samples.

Results

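The genes described here are 10 stress-inducible genes in single cells of the embryonic mouse heart: the early response genes Fos, Fosb, Jun, Junb, Egr1, Atf3, Ier3 and Irf1, and the heat shock genes Hspa1a and Hspa1b. They were taken by name, and 10 of 10 were rows of the 15124 genes counted. The list was drawn up with earlier results known and in part selected on expression values of these same cells, since Irf1, Ier3 and Hspa1b had been among the genes with the highest folds in clusters of them. Their differences between sets of cells are therefore given as a description, with no test.

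The cells, each a sample of its own, came from the hearts of mice with the genotype Wnt1-Cre; R26-EYFP, in which Cre made in the neural crest lineage switches on a yellow fluorescent protein, and all cells carried both alleles. Embryos were of 4 ages, E17.5, E14.5, E12.5 or E11.5, but the labels do not tie a cell to its age, its embryo or its chip. The region of the aorticopulmonary septum was taken apart with trypsin and EDTA for 15 minutes at 37 °C, kept on ice, sorted for EYFP, and captured and reverse transcribed cell by cell on Fluidigm C1 chips. All cells thus form 1 group with no untreated control, and since cells are not replicates no p-value is given. Cells were divided by the leading digit of their names into 7 name series of 58, 48, 38, 38, 34, 34 and 44 cells, numbered 1 to 7 by that digit. Its meaning is not given by the labels, so these series stand for no condition of the study.

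Immediate early genes are transcribed within minutes of a stimulus from factors already present in the cell, without new protein synthesis. Fos and Jun proteins pair through leucine zippers to form the transcription factor AP-1, which then acts on later genes. Hspa1a and Hspa1b encode the inducible Hsp70 chaperones, which bind unfolded proteins and are switched on by the factor Hsf1 when proteins are damaged. Both programmes are known to be induced when tissue is dissociated with warm enzyme, and early response genes are also induced in living tissue by growth factors and stretch. All cells here were dissociated alike, so the part of that step in their levels cannot be told apart.

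Total reads lay between 34046 and 3033857 a cell (median 1204543). Values are given as CPM, the reads of a gene per 1000000 reads of the cell. Series medians of total reads lay between 635879 (series 3) and 1630832 (series 2), with 1588066 in series 1. A median of 7718 genes per cell had a read in series 1, against 3123 to 4676.5 in the other series. Of all genes, 2051 had a read in every cell of series 1, and far fewer in each of the others. The 10th percentile of a cell's level relative to the other cells of its series, over genes averaging 100 CPM or more, is called the low-end level here. Its median was 2.43% in series 1, with a highest value of 37.1%, and 0% in the other 6 series. All 10 stress genes had at least 1 read in all 58 cells of series 1. For that reason low levels in series 1 are not read as expression below, and counts of cells use levels of 100 CPM or 1000 CPM. The 100 CPM level does not clear the low-end level in every cell. In C146 the low-end level was 37.1%, and the mean of Atf3 in series 1, for example, was 442.6 CPM.

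The cells carried most of the markers of mesenchyme. Col3a1 was at 100 CPM or more in 98.6% of cells and Postn in 94.6%. Pdgfra and Sox9 were so in 62.2% and 63.6%, and Twist1, the lowest of 6 mesenchyme markers, in 29.9%. The smooth muscle genes Tagln and Acta2 were so in 66.7% and 52.7%, but Cnn1 in 26.5% and Myh11 in only 5.78%. Of 3 epicardium markers, Tbx18 and Tcf21 were at this level in 36.4% and 31.97% of cells and Wt1 in 3.74%. Of 5 cardiomyocyte markers, Tnnt2 and Actc1 were so in 11.9% and 10.9%, and Myl7, Myh6 and Nppa in 0.340% to 1.70%. The 5 glia markers were so in 1.36% to 4.76%, the 3 endothelium markers in 0.340% to 2.72%, the 3 melanocyte markers in 0% to 1.02%, and the blood and macrophage markers Hbb-y and Cx3cr1 in 0.340% and 0%. Only 2 of 6 listed blood and macrophage markers, 3 of 5 of endothelium, and 3 of 4 each of melanocyte and epicardium were among the genes counted. Low shares there do not show that these cell types were absent.

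The promoter sequences of 5 of the genes are shown with their matches to short motifs. Each is the 250 bases that end just before the annotated start in RefSeq on GRCm38.p6, written 5′ to 3′ on the gene's own strand, in lower case with the matches to all 8 motifs searched in capitals. RefSeq windows matched 9 of the 10 genes. For Fos (chr12:85473640-85473889, plus strand) the capitals mark, from the 5′ end, a kappaB site, bound by NF-kappaB, 2 copies of TGACG, the half-site of the cyclic AMP response element, and the TATA box TATAAA. For Jun (chr4:95052223-95052472, minus strand) they mark a match to GAANNTTC, the core of the heat shock element bound by Hsf1, and then TGANNTCA, the form of element through which AP-1 is known to act on the Jun gene. For Irf1 (chr11:53769764-53770013, plus strand) they mark the gamma-activated site TTCNNNGAA and a kappaB site.
Fos: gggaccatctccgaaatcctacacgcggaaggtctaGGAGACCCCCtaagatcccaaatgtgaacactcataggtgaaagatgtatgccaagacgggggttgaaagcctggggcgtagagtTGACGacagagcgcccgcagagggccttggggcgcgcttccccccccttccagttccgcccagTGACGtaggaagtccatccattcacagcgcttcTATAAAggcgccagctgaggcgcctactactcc
Jun: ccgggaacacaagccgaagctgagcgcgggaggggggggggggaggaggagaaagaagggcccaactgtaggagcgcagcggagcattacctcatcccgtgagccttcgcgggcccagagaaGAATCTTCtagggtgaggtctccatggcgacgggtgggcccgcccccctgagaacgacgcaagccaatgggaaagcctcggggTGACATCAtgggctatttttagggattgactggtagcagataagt
Irf1: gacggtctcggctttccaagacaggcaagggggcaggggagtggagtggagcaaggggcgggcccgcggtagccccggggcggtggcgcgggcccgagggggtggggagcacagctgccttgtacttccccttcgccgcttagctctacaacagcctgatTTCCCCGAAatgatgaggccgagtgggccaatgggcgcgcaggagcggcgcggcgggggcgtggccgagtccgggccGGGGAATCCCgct

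The promoters of Hspa1a (chr17:34972157-34972406, minus strand) and Hspa1b (chr17:34959239-34959488, minus strand) are set side by side because the genes are near copies. The capitals mark a kappaB site and then GAANNTTC.
Hspa1a: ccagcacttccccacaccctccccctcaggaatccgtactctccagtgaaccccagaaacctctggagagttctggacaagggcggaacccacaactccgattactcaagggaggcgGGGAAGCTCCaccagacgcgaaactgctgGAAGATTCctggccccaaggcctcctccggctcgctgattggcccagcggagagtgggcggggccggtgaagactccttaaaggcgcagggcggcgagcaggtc
Hspa1b: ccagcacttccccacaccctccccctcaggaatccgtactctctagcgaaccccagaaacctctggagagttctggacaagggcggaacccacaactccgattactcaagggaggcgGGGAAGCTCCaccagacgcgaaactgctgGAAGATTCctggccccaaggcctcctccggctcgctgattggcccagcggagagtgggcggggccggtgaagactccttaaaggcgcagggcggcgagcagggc
The 250 bases were 98.8% identical and differed at 3 positions, counted from 1 at the 5′ end with the Hspa1a base first: C44T, T47C and T249G. None of these lay in the capitals. All motifs were searched on both strands, and different motifs may overlap. Over the same window before the starts of 32851 RefSeq promoters, GAANNTTC was found in 6.69%, TGACG in 17.8%, TATAAA in 12.4%, TGANNTCA in 11.9%, TTCNNNGAA in 7.02% and the kappaB site in 7.25%. The AP-1 site TGANTCA, found in 6.75%, and the CArG box, in 1.47%, had no match in the 5 sequences. Sites more than 250 bases before a start were not searched, so this does not show that a gene lacks either element. Such a match is a description of the letters and not evidence of binding in these cells.

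Fos (ENSMUSG00000021250.13, chromosome 12, 85473890 to 85477273 on GRCm38), the main Fos-family partner in AP-1, was high in series 1 to 3. Its median level was 1649 CPM in series 1 (95% order-statistic interval 1328 to 2287), 334.5 CPM in series 2 (31.7 to 1679) and 1935 CPM in series 3 (932 to 3236). In series 4 to 7 the medians were 184.6, 8.52, 1.63 and 2.41 CPM. Every other series had cells at 0. The lowest cell of series 1 had 49.04 CPM, a low level that is not read as expression. The highest cells of series 1 to 7 had 19033, 11183, 9959, 1505, 1409, 2248 and 2451 CPM. The series overlapped, but at 1000 CPM or more Fos marked 40 of 58, 21 of 48 and 24 of 38 cells in series 1 to 3 and only 2, 3, 5 and 3 cells in series 4 to 7. In series 2, Fos was under 100 CPM in 20 of the 48 cells and at 1000 CPM or more in 21.

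Fosb (chromosome 7, 19302696 to 19310051), a second Fos-family gene, had a median of 76.04 CPM in series 1 and 69.7 CPM in series 3, and 0 CPM in the other 5 series. Its highest cells ran from 89.8 CPM in series 7 to 6450.3 CPM in series 2. That single cell set the series 2 mean, which was 282.98 CPM with it and 151.8 CPM without it. Fosb was at 100 CPM or more in 24 of 58, 10 of 48 and 17 of 38 cells in the first 3 series, and in 5, 3, 1 and 0 cells in series 4 to 7.

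Jun (chromosome 4, 95049034 to 95052222), the partner of Fos proteins in AP-1, differed least between series. Its medians were 202.3, 98.4, 195.3, 54.7, 62.9, 38.2 and 145.7 CPM in series 1 to 7. The highest cells had 2382, 1867, 1599, 1226, 1067, 1522 and 912 CPM. All 7 series overlapped over most of their range, and 52.7% of all cells (exact 95% interval 46.8% to 58.5%) had Jun at 100 CPM or more. The antisense gene Junos overlaps Jun, and the library kit does not mark strand, so their reads cannot be told apart.

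Junb (chromosome 8, 84974484 to 84978718), a second Jun-family gene with an AP-1 activity that can oppose that of Jun, followed Fos more than Jun. Its medians were 343, 133.5 and 226.7 CPM in series 1 to 3, 4.74 CPM in series 4 and 0 CPM in series 5 to 7. It was at 100 CPM or more in 43 of 58, 25 of 48 and 28 of 38 cells in the first 3 series, and in 9 of 38, 9 of 34, 4 of 34 and 6 of 44 cells in the other 4. The highest cells of the latter 4 series had 258.5 to 776 CPM, within the range of series 1 to 3. Prdx2 overlaps Junb on the opposite strand.

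Egr1, a zinc finger factor induced through serum response factor, resembled Fos across series. Its medians were 1404 CPM in series 1 (919 to 2348), 652 CPM in series 2 (52.6 to 1700) and 2105 CPM in series 3 (1030.4 to 3302), and 91.6, 140.8, 133.98 and 1.96 CPM in series 4 to 7. The lowest cells of series 1 and 3 had 64.7 and 13.01 CPM, that of series 1 again not read as expression, while the other series reached 0. Cells at 1000 CPM or more numbered 35, 22 and 26 in series 1 to 3, and 3, 5, 8 and 2 in series 4 to 7. The highest cell of series 6, at 4361 CPM, lay well inside the range of series 1 to 3, which reached 6745, 6139 and 6611 CPM.

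Atf3 (chromosome 1, 191170296 to 191218039), a factor of the integrated stress response that can pair with Jun, was under 100 CPM in most cells of every series. Its median was 25.1 CPM in series 1 and 0 CPM in series 2 to 7. It was at 100 CPM or more in 25 of 58, 9 of 48 and 12 of 38 cells in the first 3 series, and in 3, 3, 4 and 6 cells in the other 4. The highest cells had 7441, 4341, 1722, 233.1, 1075, 613 and 735 CPM in series 1 to 7, so single cells of most series reached levels far above the series 1 median. The small RNA gene Gm24748 overlaps Atf3 on the opposite strand.

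Ier3 (chromosome 17, 35821684 to 35822923), an early response gene that modulates cell survival, had medians of 189.4 CPM in series 1, 22.1 CPM in series 3 and 0 CPM in the rest. At 100 CPM or more it marked 37 of 58 and 16 of 38 cells of series 1 and 3, and 6 of 48 cells of series 2, against 2, 4, 2 and 4 cells in series 4 to 7. Its highest cells had 4009, 557.7, 1330.1, 295.9, 1372, 334 and 564.2 CPM. The 34 cells of series 5 included 1 at over 1000 CPM although 27 of them had no read.

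Irf1 (chromosome 11, 53770014 to 53778374), a factor induced by interferon gamma and NF-kappaB, was the member most held by series 1 at the high level. Of its 12 cells at 1000 CPM or more, 9 were in series 1, 1 in series 2 and 2 in series 3. The median was 61.6 CPM in series 1 and 0 CPM elsewhere, and the highest cells had 4809, 1640.4 and 1327 CPM in series 1 to 3 and 205.4 to 501 CPM in series 4 to 7. Within series 1 the level spanned 0.528 to 4809 CPM, with 24 of 58 cells at 100 CPM or more. The gene Gm17334 overlaps Irf1 on the opposite strand.

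Hspa1a (chromosome 17, 34969190 to 34972156) and Hspa1b (chromosome 17, 34956436 to 34959238) encode nearly the same Hsp70 chaperone from neighbouring genes. Hspa1a had a median of 157.5 CPM in series 1, with cells from 5.94 to 1367 CPM, and 0 CPM in series 2 to 7. Hspa1b had a median of 317.2 CPM in series 1, with cells from 9.82 to 18876 CPM, and again 0 CPM elsewhere. Outside series 1 most cells had no Hspa1b read at all, with 29 of 48, 29 of 38, 33 of 38, 28 of 34, 25 of 34 and 36 of 44 cells at 0 in series 2 to 7. Its highest cells in those series had 602.7, 8727, 332, 196.2, 1103 and 181.9 CPM.

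Hspa1b was at 100 CPM or more in 39 of 58 cells of series 1 (67.2%, exact 95% interval 53.7% to 78.99%) and in 10, 4, 2, 3, 3 and 3 cells of series 2 to 7. The mean of Hspa1b in series 1 was 718 CPM, and 399 CPM without its highest cell, C143. In series 3 it was 312 CPM with and 84.5 CPM without its highest cell, C376. Because the read pairs have ends of 50 bases, sharing between the copies matters. Of all 50-base windows of the Hspa1a transcript, 58.8% occur in Hspa1b, and 82.4% of those in its coding sequence do. In the 44 cells with both genes at 100 CPM or more, Hspa1b was higher in 34, with a median log2 ratio of Hspa1b to Hspa1a of 0.32 and a range from -1.31 to 4.46. How the authors' counting treated reads that match both is not given in the sources used here, so the split between the copies is uncertain. Gm20481 overlaps Hspa1a on the opposite strand.

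**Figure D1:**
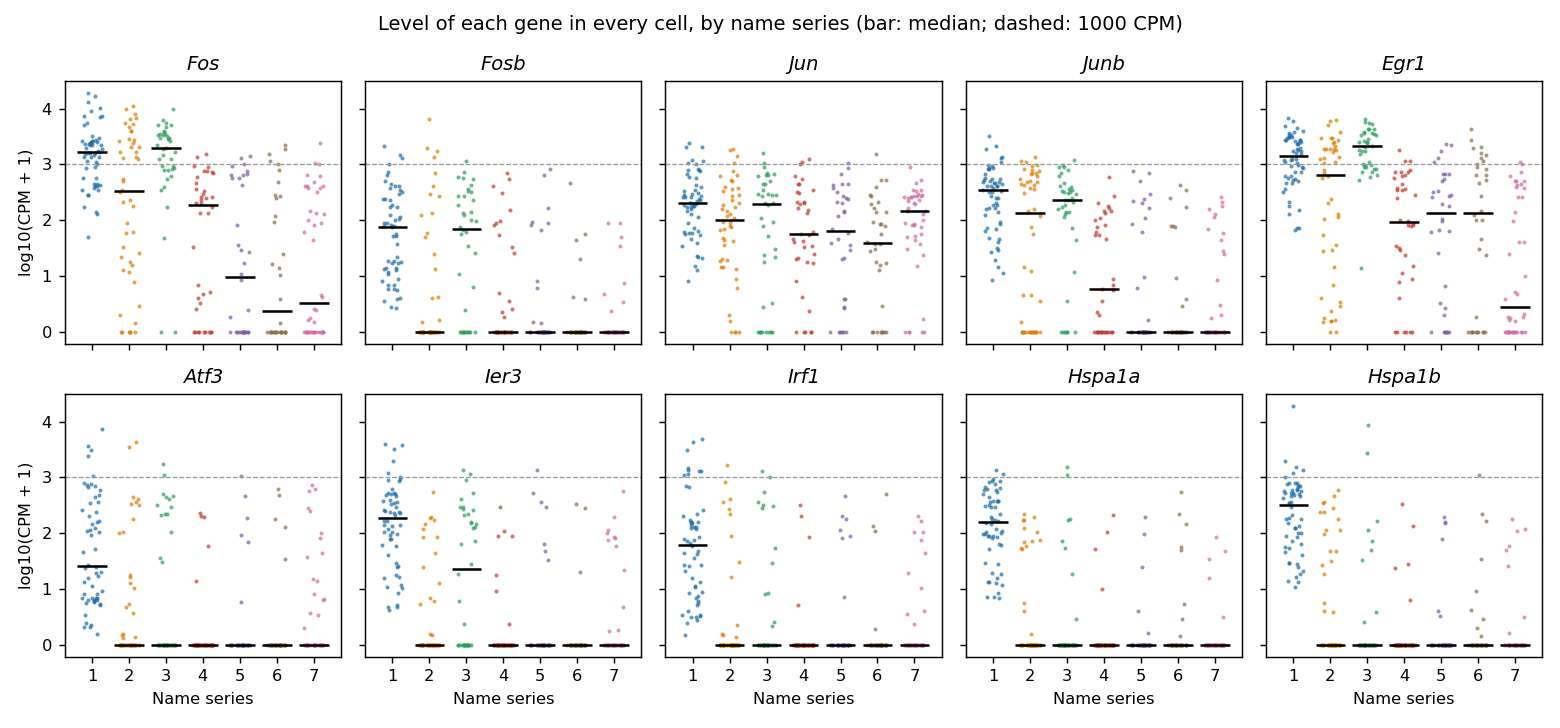
Level of each of the 10 genes in every cell, as log10(CPM + 1), by name series 1 to 7; each point is 1 cell, the bar is the median of the series and the dashed line is 1000 CPM. Fos and Egr1 have medians over 1000 CPM in series 1 and 3, while Hspa1a and Hspa1b have a median above 0 in series 1 and in no other series.

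Per kilobase of exon, which allows levels of different genes to be compared, Fos came first with 502.8 CPM per kb as the mean of the 7 series means, and with series values from 90.7 to 1231. Egr1 followed with 225.2 (37.8 to 540.3). Ier3 had 104.02, Junb 83.9, Jun 75.8, Atf3 65.9 and Hspa1b 60.4 CPM per kb. Irf1 (25.1), Hspa1a (22.1) and Fosb (19.1) had the lowest levels. The ranges over series overlapped between all neighbours in this order, and Fos led in 6 of 7 series, with Egr1 ahead of it in series 6. Lengths are unions of the GENCODE M21 exons and may differ from those used in the counting.

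As mean CPM, 9 of the 10 genes were at least 2 times higher in series 1 than the mean of the other 6 series, with 10 CPM added to both, beside 3.25% of all 15124 genes. The fold was 8.17 for Hspa1a, 8.27 for Hspa1b, 7.56 for Irf1, 6.92 for Ier3, 4.44 for Atf3, 3.204 for Fos, 3.198 for Junb, 2.09 for Fosb and 2.08 for Egr1, and Jun was at 1.80. The median fold of the 10 genes was 3.82, against 0.94 for all genes. With the highest cell of series 1 left out for each gene, 7 of 10 were past 2 times, Fosb then being at 1.79 and Egr1 at 1.98. Without the 9 cells whose low-end level was above 10%, 8 of them in series 1, the fold of Hspa1b was 4.58. C143, its highest cell, is among those 9, and leaving out that cell of series 1 alone gave 4.65. The other folds moved less without the 9 cells, to 7.91 for Hspa1a, 7.32 for Ier3, 8.42 for Irf1 and 1.98 for Egr1, for example. Earlier values of the cells described here chose the list, so nothing is read from the count.

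Series 3 had Fos and Egr1 high, and the heat shock genes at 0 in most cells. Here 3 of 10 genes were at least 2 times higher than in the mean of the other series, beside 4.69% of all genes: Egr1 at 3.10, Fos at 2.46 and Hspa1b at 2.07. The value of Hspa1b rested on cell C376, and without the highest cell of series 3 it was 0.61. Series 2 had 1 of 10, Fosb at 2.87, beside 5.3% of all genes, and 0 of 10 without its highest cell. When series 1 was left out of the comparison, 4 of the 10 genes in series 2 and 8 of 10 in series 3 were at least 2 times higher than in the remaining series, beside 6.35% and 4.86% of all genes.

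In series 4 to 7 most of the genes were low. At least 2 times lower than the mean of the other series were 8 of 10 genes in series 4 (beside 5.68% of all genes), 8 of 10 in series 5 (10.1%), 8 of 10 in series 6 (12.2%) and 9 of 10 in series 7 (4.71%). With series 1 left out of the comparison the counts were 8, 4, 5 and 7, beside 5.96%, 10%, 12.4% and 4.85% of all genes. These comparisons share cells with one another, and the counts are not independent.

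Within a series, the genes differed in how evenly cells shared them. The 10% of cells with the highest CPM of a gene held 40.9% of the summed CPM of Egr1 as the median over series, 46.8% of that of Fos, 46.8% of Jun and 51.3% of Junb. They held 81.5% for Ier3, 87.2% for Fosb, 89.2% for Atf3, 89.4% for Irf1, 95.4% for Hspa1a and 98.7% for Hspa1b, beside a median of 73.8% over the 8853 genes that reached 10 CPM in no fewer than 10% of cells. Series 1 differed from this order, since there the same 10% of cells held 35.1% of the summed CPM of Hspa1a, against 44.99% for Fos, 43.2% for Jun and 39.2% for Junb, and 62.4% for Hspa1b.

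Cells that had any early response gene on usually had several in series 1 and 3. At 100 CPM or more, the median number of the 8 early response genes on in a cell was 6, 3, 4.5, 2, 2, 1 and 2 in series 1 to 7. At least 4 were on in 44 of 58 cells of series 1 (75.9%), 21 of 48 of series 2 and 28 of 38 of series 3 (73.7%), against 6, 7, 4 and 4 cells of series 4 to 7. All 8 were on in 11 cells of series 1 and in 1 cell of series 3. At least 1 was on in 86.4% of all cells (exact 95% interval 81.9% to 90.1%).

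At the high level of 1000 CPM, 46.3% of cells had an early response gene (40.5% to 52.1%) and 9 cells had a heat shock gene (3.06%, 1.41% to 5.73%). The early share was 79.3%, 54.2%, 89.5%, 15.8%, 26.5%, 32.4% and 9.09% in series 1 to 7. The heat shock cells numbered 6 in series 1, 2 in series 3 and 1 in series 6. At 100 CPM the heat shock share was 74.1% in series 1, then 22.9%, 13.2%, 7.89%, 8.82%, 8.82% and 6.82%. Series 3 thus had the highest early share and a heat shock share far from that of series 1, with 33 of its 38 cells holding an early response gene and no heat shock gene at 100 CPM.

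Whether the programmes were on in the same cells was read within each series, since pooling series would mix the differences above into the answer. All 71 cells with a heat shock gene at 100 CPM also had an early response gene at that level (24.1% of cells, 19.4% to 29.5%). The joint share is then the heat shock share itself, and every cell of series 1 and 3 had an early response gene, so those series cannot show an excess. In the other 5 series, with early shares of 73.5% to 85.3%, all 23 heat shock cells had an early response gene, where the product of the separate shares gives 18.3 cells. At 1000 CPM, 8 of the 9 heat shock cells also had an early response gene (2.72% of all cells, 1.18% to 5.29%), where the product within series gives 6.87 cells (2.34%). With so few heat shock cells these counts have little room to differ from the product, and no test was made.

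The scores of the programmes had no common relation across series. The early score, the mean of log2(CPM + 1) over the 8 early response genes, and the heat shock score, the same mean over Hspa1a and Hspa1b, had a Spearman's correlation of -0.01 across cells as the median over series. Single series ran from -0.26 in series 5 to 0.10 in series 3, and 3 of 7 were above 0. Series 1, the only series with a heat shock score above 0 in most cells, had -0.075. In series 2 to 7 most cells were tied at a heat shock score of 0. Correlations there largely set cells with a heat shock read against cells without, and say little about graded levels. Taken over all cells as 1 set the correlation was 0.43, which includes the difference of series 1 from the rest in both scores. The median early score was 7.55 in series 1, 4.28 in series 2, 5.82 in series 3 and 2.17 to 3.38 in series 4 to 7. The median heat shock score was 7.64 in series 1 and 0 in the other 6. Both scores count low levels too, and every one of these genes had a read in every cell of series 1. The scores of series 1 thus include low levels that are not read as expression. At 1000 CPM the order of the early share was the reverse, with 89.5% in series 3 and 79.3% in series 1.

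**Figure D2:**
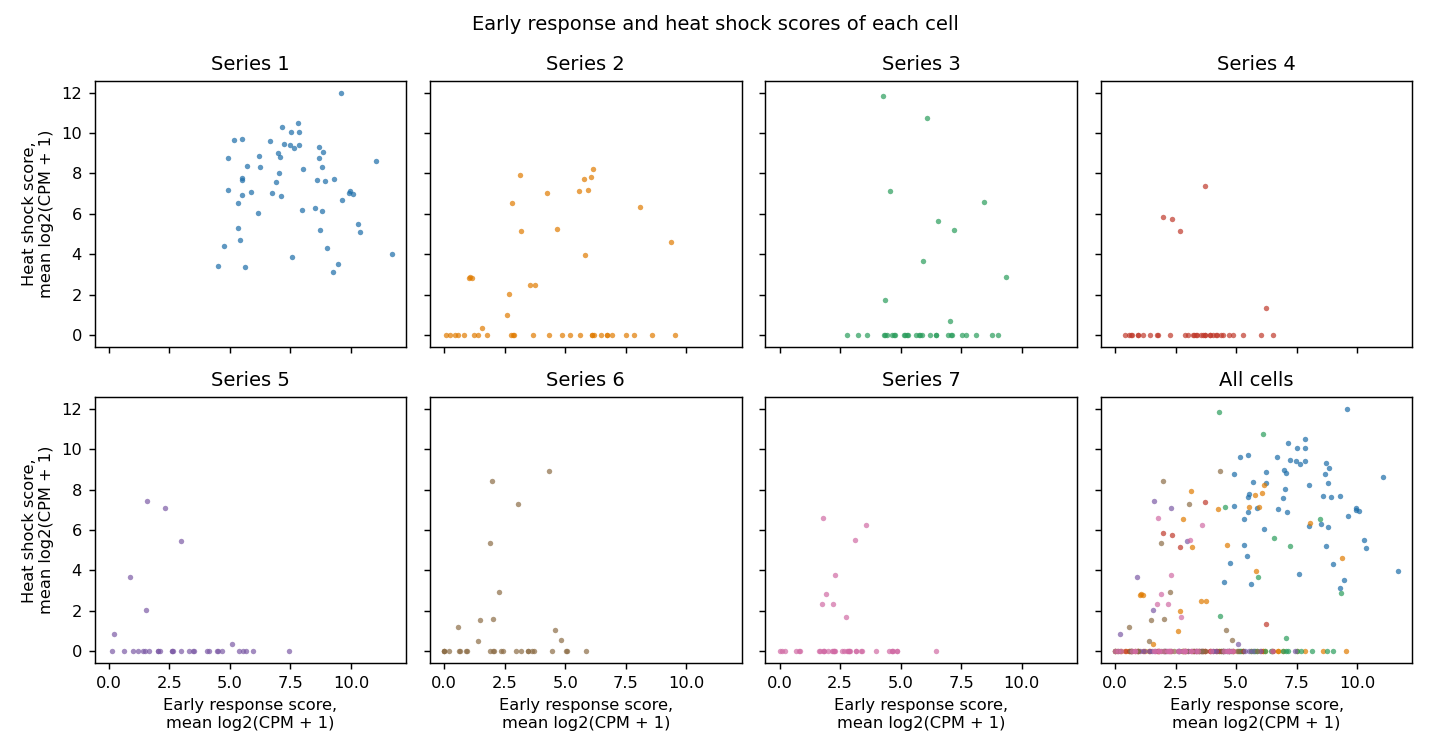
Early score against heat shock score, both as mean log2(CPM + 1), with 1 point per cell, in a panel for each of the 7 name series and a last panel for all cells together. Within series the points show no common slope, with correlations from -0.26 to 0.10, while the pooled panel has 0.43, with series 1 apart from the others.

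Most pairs of early response genes had a correlation above 0. Over the 28 pairs the median correlation within series was 0.22, 27 pairs were above 0 and 9 reached 0.3. No share over all pairs of genes was computed. Of 8852 genes scanned, 0.0678% reached 0.3 with Fos and 0.102% with Egr1, and the median over all genes was 0.002 with Fos and -0.019 with Egr1. Fos and Egr1 had the highest, 0.52, with single series from 0.10 in series 3 to 0.88 in series 2. Egr1 and Junb had 0.48 (0.24 to 0.71), Fos and Junb 0.41 (0.25 to 0.75), Fos and Fosb 0.41 (0.10 to 0.67), and Jun and Atf3 0.33 (0.18 to 0.56). The 16 pairs of an early response gene with a heat shock gene had a median of -0.03, lay between -0.11 and 0.17, and 0 of them reached 0.3. The highest of these were those of Jun with Hspa1a and with Hspa1b, both 0.17. Both were weak but above 0 in all 7 series, from 0.03 to 0.34 with Hspa1a and from 0.005 to 0.25 with Hspa1b. Hspa1a and Hspa1b had 0.75 (0.66 to 0.90), and the part of reads shared between the copies in that value was not tested. Genes of 1 cell share its library and its total, so these correlations are descriptions over 34 to 58 cells a series.

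**Figure D3:**
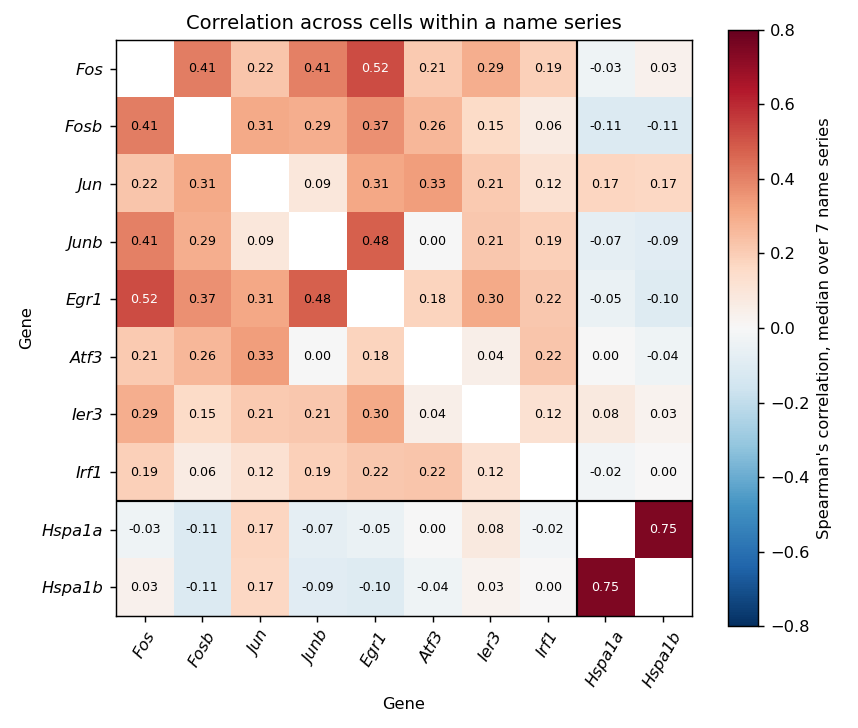
Spearman's correlation across cells for each pair of the 10 genes, as the median over the 7 name series, with colour and printed number giving the value. Fos, Egr1, Junb and Fosb form the block with the higher values, up to 0.52, Hspa1a and Hspa1b have 0.75 with each other, and early response with heat shock pairs lie between -0.11 and 0.17.

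Neither score had a correlation with the depth of a cell that kept its sign across series. The early score had a median correlation with total reads of 0.01, from -0.20 in series 2 to 0.35 in series 7. The heat shock score had 0.02, from -0.19 in series 1 to 0.20 in series 4. With the number of genes detected, which itself followed total reads with a median of 0.50, the early score had 0.19 (-0.07 to 0.42). The heat shock score had 0.12 with it (-0.005 to 0.41). Each score was above 0 with genes detected in 6 of the 7 series. Series 3 had the lowest median depth and the highest share of cells with a high early response gene, and series 6, with a median of 1623335 reads, had a median Fos of 1.63 CPM. In series 1 the heat shock score had a correlation of 0.38 with the low-end level and the early score 0.06, and in series 7 the values were 0.40 and 0.12. At 1000 CPM the share of cells with a heat shock gene was 2.81% without the cells whose low-end level was above 10%, beside 3.06% with them. A bar of 3 times the low-end level left the share at 3.06%. That bar lay under 1000 CPM for Hspa1a and Hspa1b in every cell, so it could exclude none. With the low-end level regressed out, the correlation of the scores was 0.01 as the median over series. The low-end level was above 0 in 58 cells of series 1 but in only 3, 1, 2, 0, 0 and 8 cells of series 2 to 7. The regression could thus change little outside series 1, and its median over series does not show series 1 by itself.

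When each cell was thinned to 200000 reads, which left out the 15 shallower cells, the share with Fos at 100 CPM or more was 60.6%, beside 60.9% unthinned. Thinning lowered the shares of cells with any read more than those at 100 CPM. In series 1, the share of cells with a Fosb read went from 100% to 85.2%.

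**Figure D4:**
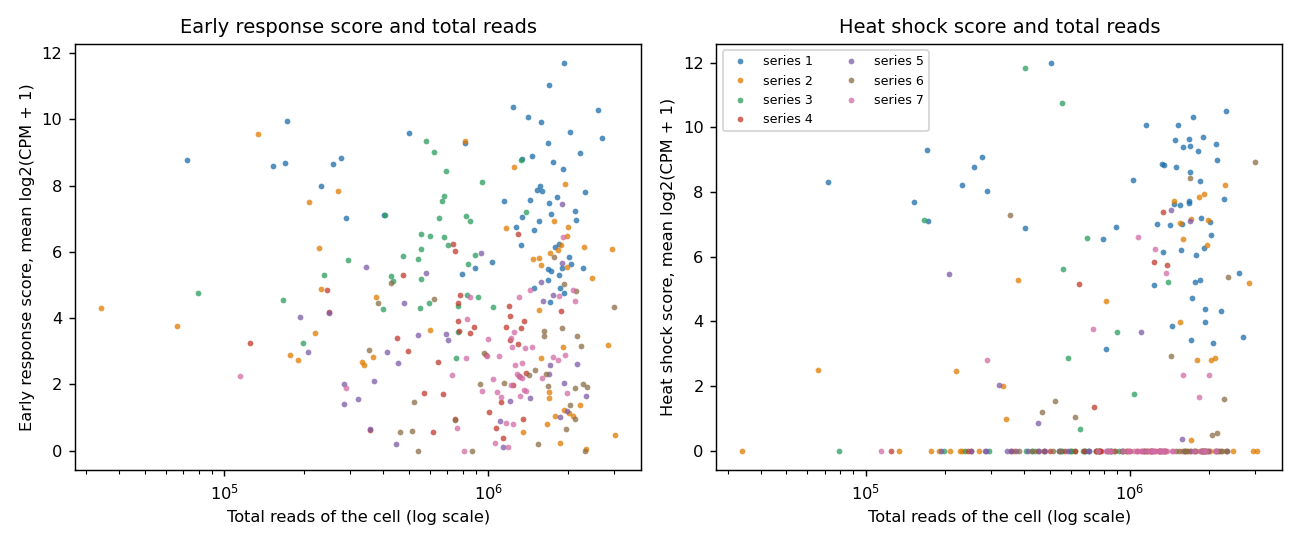
Early score (left) and heat shock score (right), as mean log2(CPM + 1), against the total reads of the cell on a log axis, with 1 point per cell coloured by name series. Within series neither score has a steady slope, with median correlations of 0.01 and 0.02.

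Single cells with the most transcripts differed in which genes they combined. They were singled out after their values were seen. C143 of series 1 had 18876 CPM of Hspa1b with 9145 CPM of Fos, 5942 CPM of Egr1 and 3070 CPM of Atf3, at 502012 total reads and a low-end level of 15.3%. C376 of series 3 had 8727 CPM of Hspa1b and 1530.3 CPM of Hspa1a, with 4344 CPM of Egr1, 1999.6 CPM of Fos and 697 CPM of Jun, but no read of Fosb, Atf3, Ier3 or Irf1, and its early score ranked 35 of 38 in the series. C327 of series 3 had 2691 CPM of Hspa1b with 5530 CPM of Fos and 2414 CPM of Egr1. C647 of series 6, the 1 cell with a heat shock gene but no early response gene at 1000 CPM, had 1103 CPM of Hspa1b with 613 CPM of Atf3, 485.3 CPM of Fos, 462 CPM of Egr1 and 210.3 CPM of Jun, and its early score ranked 7 of 34. In the other direction, C129 of series 1 had the highest early score of all cells, 11.7. It had 7441 CPM of Atf3, 7339 CPM of Fos, 4809 CPM of Irf1 and 3867 CPM of Ier3, but only 10.9 CPM of Hspa1a and 20.2 CPM of Hspa1b, the heat shock score ranking 53 of 58.

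The genes most like each anchor were sought among 8852 others by the median correlation over series. For Fos they were Egr1 (0.52), Fosb (0.41), Junb (0.41), Mstn (0.32) and Tsc22d1 (0.32), where 3 of the other 9 stress genes reached 0.3 beside 0.0678% of all genes. For Egr1 they were Fos (0.52), Junb (0.48), Ier2 (0.47), Fosb (0.37) and Zfp36 (0.36), with 5 of 9 at 0.3 beside 0.102%. For Irf1 they included Foxs1 (0.42), Trabd2b (0.39), Gadd45b (0.31) and Myh11 (0.30), with 0 of 9 at 0.3 beside 0.0452%. For Hspa1a, Hspa1b (0.75) stood alone among the 9, beside 0.0678%, and Abcf2 (0.35), Tubb2a (0.33), Pecr (0.32) and Sec22c (0.31) came next. Irf1 and Hspa1a had no read in most cells of 6 series, and weak correlations in such sparse counts are not findings.

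Other genes of the early response went with the members within series. Of 21 kept feedback and secreted early genes, 4 reached a correlation of 0.3 with the early score, beside 0.124% of all genes: Zfp36 (0.41), which destabilises messenger RNAs, Ier2 (0.37), Dusp1 (0.33), a phosphatase that turns off MAP kinases, and Btg2 (0.31). Their median was 0.19 against 0.03 for all genes. Of 15 other early transcription factors 1 did, Klf6 (0.32), with a median of 0.19. Jund, a constitutively expressed Jun-family gene, had a correlation of 0.12 and was at 0.89 times in series 1.

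Between series, 8 of 22 feedback genes and 7 of 17 other early factors were at least 2 times higher in series 1, beside 3.25% of all genes. Zfp36 had a mean of 1065 CPM in series 1, 628 CPM in series 2, 226.98 CPM in series 3 and 0.7503 to 50.8 CPM in series 4 to 7. Ier2 had 561, 329 and 518 CPM in series 1 to 3 and 82.03 to 164.4 CPM after. Egr2, a relative of Egr1, was at 2.48 times in series 1 and 2.48 times in series 3, and Fosl2 was at 1.10 and 2.94 times.

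Of 18 other heat shock genes 3 were at least 2 times higher in series 1: Cryab (2.75), Hspb1 (2.61) and Dnajb4 (2.34), beside 3.25% of all genes, and 1 was at least 2 times lower, Hsf2 (0.49), beside 7.11%. Dnajb1, the Hsp70 cochaperone that is also an Hsf1 target, was at 1.64 times, with means from 37.7 to 144.06 CPM over the series. Hsph1 was at 0.75 times, and Hspa8, the constitutive Hsp70, was at 0.97 times with a median of 1755 CPM over all cells. None of the 18 reached 0.3 with the heat shock score, where the background was 0.0226% of all genes, and their median was 0.05 beside 0.04 for all genes. Hspb1 had 0.13 and Dnajb1 0.08.

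The same 3.25% and 7.11% of all genes stand beside the counts of the other stress lists. Of 15 NF-kappaB and interferon genes 6 were at least 2 times higher in series 1, among them Nfkbia, the inhibitor that NF-kappaB itself induces, at 4.15 times (637 CPM against 52.8 to 281.3 CPM in series 2 to 7). Of 12 endoplasmic reticulum stress genes 1 was, Ddit3 at 3.79 times, with the chaperone Hspa5 at 1.402 and Xbp1 at 1.28. Of 12 p53 and oxidative stress genes 1 was, Nqo1 at 2.59, with Cdkn1a at 1.30 and Hmox1 at 1.28. Of 12 housekeeping genes 0 were, with Actb at 1.04 and Gapdh at 0.94, and 1, Pgk1, was at least 2 times lower (0.48). With the early score, the median correlation was 0.15 over the 7 kept p53 and oxidative stress genes, 0.13 over the 8 kept NF-kappaB and interferon genes and 0.05 over the 10 kept endoplasmic reticulum stress genes, beside 0.03 for all genes. None of the genes of these 4 lists kept for correlation reached 0.3 with either score.

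**Figure D5:**
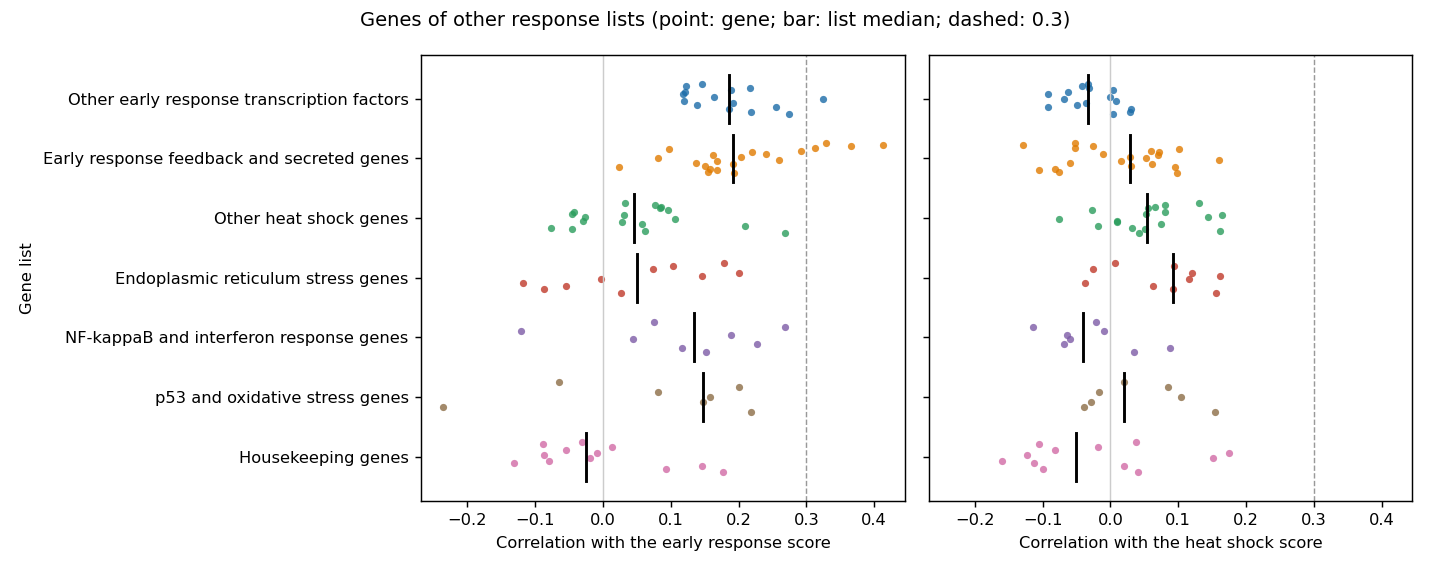
Correlation of each list gene with the early score and with the heat shock score, as the median of Spearman's correlation over the 7 name series, with 1 point per gene and 1 row per gene list. With the early score the medians are 0.19 for both early response lists, 0.15 for p53 and oxidative stress, 0.13 for NF-kappaB and interferon, 0.05 for the 2 other stress lists and -0.03 for housekeeping genes, and with the heat shock score they lie between -0.05 and 0.09.

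Among cell type markers, the 5 smooth muscle genes had correlations with the early score of 0.08 to 0.21, with Tagln at 0.21 and Acta2 at 0.13. Of the 6 mesenchyme genes 5 were below 0, with Col3a1 at -0.24, Postn at -0.13 and Pdgfra at -0.12, and the division markers had -0.12 to -0.08. These are medians over series, and most changed sign between series. Acta2 (0.02 to 0.38) and Myl9 (0.01 to 0.22) stayed above 0, while Tagln ran from -0.06 to 0.34. Cnn1, Myh11, the division markers and all 6 mesenchyme genes also changed sign, with Col3a1 from -0.36 to 0.12 and Pdgfra from -0.38 to 0.38. Summed smooth muscle markers had a median of 2814 CPM in series 1, the highest of the 7, and 231.06 CPM in series 3, where Fos and Egr1 were also high. The part of these cells in the levels of series 1 was not tested.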

How the data were processed

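RNA of single cells was sequenced, and all cells formed 1 group per the labels. The authors deposited raw counts, whole-number reads per gene without molecular identifiers. The authors also deposited a second table, SCT, treated as a rounded score with cell totals of 1110845 to 1216916 and used only as an alternative. The submitters' processing notes name HISAT2 2.1.0, featureCounts, Seurat and mm10, with no roles. Counts were scaled to CPM over the cell's total. Correlations are Spearman's within each name series, with the median over the 7 series. Shares carry exact Clopper-Pearson 95% intervals and medians order-statistic intervals, both of counting error only. Depth was 34046 to 3033857 reads per cell. Correlation scans kept genes that reached 10 CPM in no fewer than 10% of cells. The members and lists were chosen with earlier results of these data known. Named are the 10 members, the 5 most alike genes of 4 anchors and up to 4 genes per list, the first in list order. Some genes that this rule names are not reported here. Other named genes and cells, including Klf6, Cryab, Dnajb4, Hsf2, Nqo1 and Pgk1, were chosen after their values were seen. Coordinates are from GENCODE M21 on GRCm38. The statistics were tested on simulated data. Python 3.11.15, numpy 2.4.6, pandas 2.3.3 and scipy 1.17.1 were used.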

Additional observations from a re-analysis of the deposited data

How the results depend on the processing

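Alternatives were run for 8 results, and 11 values moved by more than the spread used (the interval of a share, the SD over series of a correlation, or 1.5 times a count). The level called high set the shares: with an early response gene 86.4% of cells at 100 CPM and 95.2% at 10 CPM, and with a heat shock gene 24.1% and 34.7%. With each name series left out in turn these shares, 46.3% and 3.06% at 1000 CPM, ranged from 38.1% to 52.8% and from 1.27% to 3.66%, both lowest without series 1. Taking all cells as 1 set in place of series moved the correlation of the early and heat shock scores to 0.43, that of the heat shock score with total reads to 0.18, and that among early response genes to 0.41. With each series left out in turn these 3 ranged from -0.04 to 0.02, 0.00 to 0.06 and 0.15 to 0.27, that of the early score with total reads from -0.01 to 0.04, and the excess of joint high cells from -0.05 to 0.56 percentage points. The count of genes at least 2 times higher in series 1 was 7 to 9 of 10, Fosb and Egr1 dropping out where series 4, 5, 6 or 7 was not in the comparison. Leaving out cells with a low-end level above 10%, an alternative chosen after seeing the data, lowered it to 8. No paired analysis was possible because all cells belong to 1 group and the names pair no cells.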
